A study of Danio rerio with 4 samples.

Results

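Laminin, integrin and related adhesion genes were followed in whole zebrafish embryos that lacked mdm2, puma, noxa and p21, and in siblings that kept mdm2. The genes were taken by name: laminin alpha, beta and gamma chains, nidogens, fibronectins, perlecan, agrin, dystroglycan and integrin subunits named with a digit or v. The rule found 55 identifiers among 32057 in the deposited table, and 39 of them reached 1 TPM in at least 2 libraries and were tested. TPM is transcript abundance per transcript length and per library total, so levels of different genes can be set side by side. The pattern also took itgb1bp1 and itgb3bp, which encode proteins named for binding an integrin tail rather than subunits, and the remaining 53 fit their label by name.

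The quadruple mutants (2 libraries) were homozygous for mutations in mdm2, puma, noxa and p21, written mdm2-/-; puma-/-; noxa-/-; p21-/-. Their siblings (2 libraries, from the same batch) were puma-/-; noxa-/-; p21-/- and either mdm2+/- or mdm2+/+, pooled under a single label. Both genotypes therefore lacked puma, noxa and p21, and no embryo was wild type. Mdm2 restrains p53, puma and noxa are p53 targets that promote cell death, and p21 is a p53 target that arrests the cell cycle. The titles call mutants abnormal and siblings normal, so genotype and appearance cannot be told apart. Age is 18 hpf in the titles and the design text and 30 hpf in the tissue label, and the labels do not settle it. The number of embryos per library and the clutch of each library are not given in the sources used here, so the spread between libraries may be technical.

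Laminins are trimers of an alpha, a beta and a gamma chain that polymerise into the sheet of the basement membrane. Nidogens and the heparan sulfate proteoglycans perlecan and agrin bind that sheet, while fibronectin forms a separate fibrillar matrix. Cells hold these matrices through integrins, which are alpha and beta heterodimers, and through dystroglycan. In zebrafish, loss of lama1, lamb1 or lamc1 disturbs the notochord, and fibronectin with its receptor integrin alpha5 is required for somite boundaries.

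Members moved in both directions in the quadruple mutants. The rises were led by fn1 (ENSDARG00000006526; log2 change 1.71), itgav (1.64), itga3 (1.55) and lama5 (1.46), and the falls by itgb4 (-1.51), lamb2l (-1.51), itgb8 (-1.27) and nid1 (ENSDARG00000103129; -1.21). Of those falling genes, itgb4 and itgb8 met the 1 TPM filter only through the siblings. Of the 39 tested members, 19 were higher (48.7%), 14 were lower (35.9%) and 6 did not pass the limma test at an adjusted p of 0.05. Among all 16172 tested genes 28.0% were higher and 37.7% lower, 65.6% in all. The members' median log2 change was 0.21 and that of all tested genes was -0.10. Log2 changes here are quadruple mutant minus sibling control in log2(TPM + 1), which compresses the change of scarce genes. Both mutant libraries lay above both sibling libraries for 20 tested members (35.8% of all tested genes did so), below for 16 (47.5%), and the genotypes overlapped for 3; over all tested genes 83.3% did not overlap. Permuting the 4 libraries exactly gives p = 0.333 at best (2-sided). The lower limma values rest on its assumption of normally distributed errors, with variance estimates shared across genes. Without either sibling library, 9 members were lower in place of 14, and no fit that left out a library gave fewer than 15 higher. Of the 39 members, 7 passed the filter through a single genotype and could hardly have entered without differing. The other 32 comprised 16 higher, 11 lower and 5 that did not pass.

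**Figure D1:**
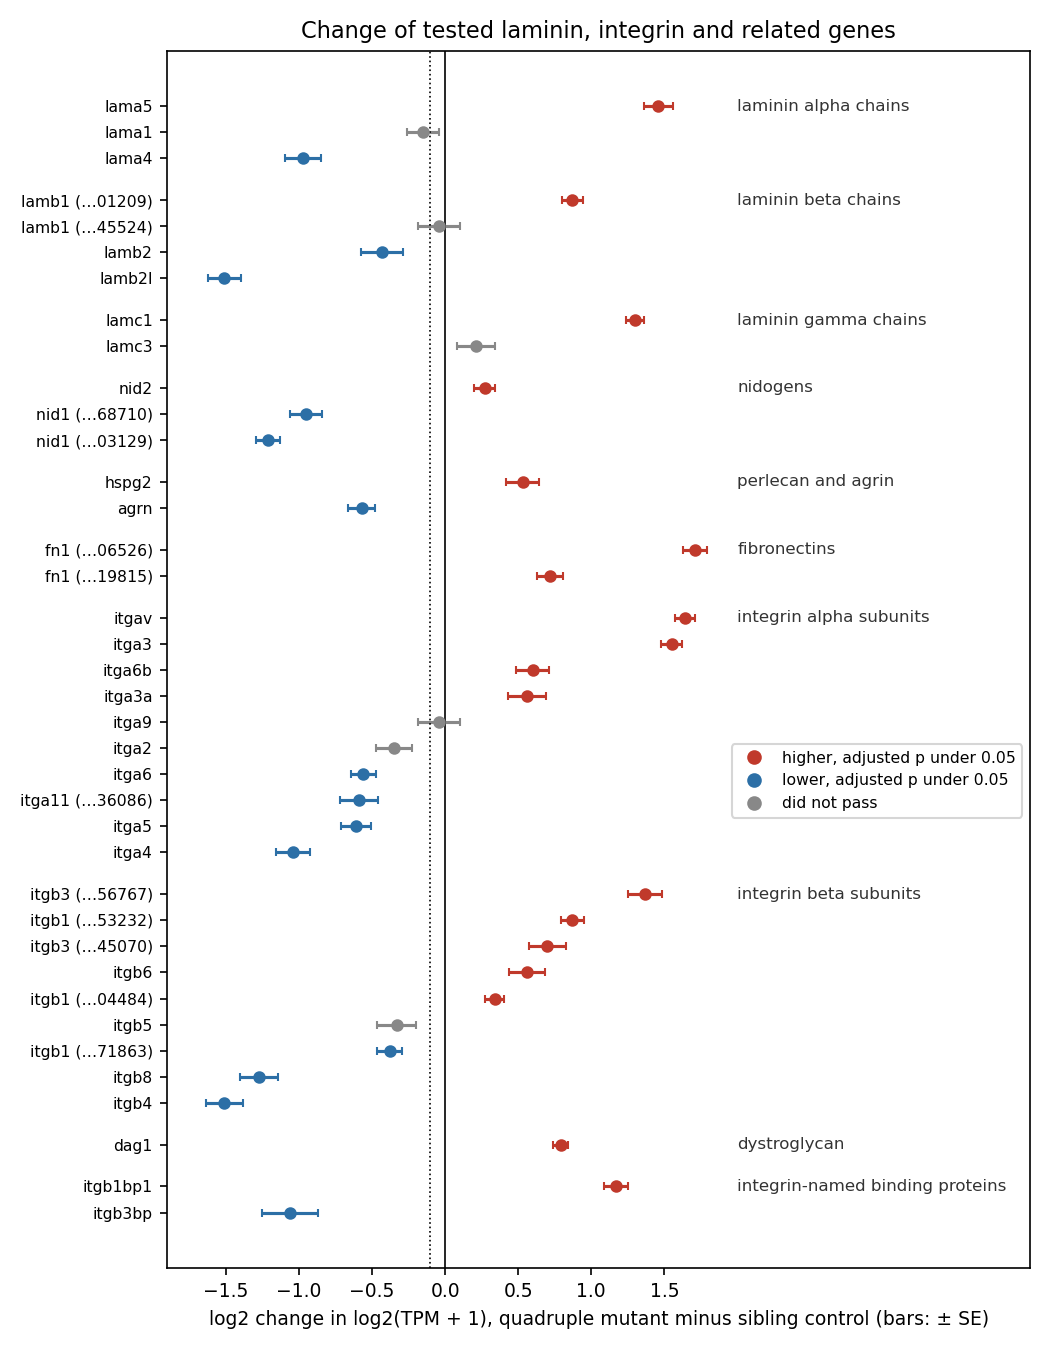
Log2 change (quadruple mutant minus sibling control, in log2(TPM + 1)) of tested members, grouped by class, with the standard error from limma as bars, 2 libraries per genotype. Red is higher, blue lower and grey did not pass; the dotted line is the median of all tested genes, -0.10. Each class other than the laminin gamma chains, fibronectins and dystroglycan holds genes that moved in opposite directions. Copies that share a symbol carry the last digits of their Ensembl identifier.

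A division by the level in siblings was chosen after the values were seen and is given as a description. Of the 12 members with a sibling mean of at least 20 TPM, 8 were higher, 3 were lower (itga6, itgb1 (ENSDARG00000071863) and nid1 (ENSDARG00000103129)) and lama1 did not pass. Of all tested genes at that level 24.4% were higher and 50.0% lower. Of the 27 tested members below it, 11 were higher, 11 lower and 5 did not pass, and of all tested genes there 29.5% were higher and 32.4% lower. Summed over all 55 members, transcripts came to 1423 and 1314 TPM in mutants against 897 and 895 TPM in siblings. In whole embryos, a change in the number of cells that express a gene and a change in RNA per cell cannot be told apart.

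Among laminin alpha chains, lama5 rose while lama1 did not pass. The lama5 chain, which zebrafish need for the fin fold and its basement membrane, stood at 39.4 and 33.1 TPM in mutants against 12.7 and 12.3 TPM in siblings. Its log2 change was 1.46 (SE 0.102, adjusted p = 9.64e-05), and the mutant mean was 2.89 times the sibling mean. The lama1 chain, the main alpha chain of the early embryo, was at 32.2 and 26.1 TPM in mutants and 32.6 and 31.9 TPM in siblings. The genotypes overlapped and the log2 change of -0.15 (SE 0.108, adjusted p = 0.265) did not pass, although without mutant library 1 the change was -0.30 and passed. lama4, a chain of vascular and muscle basement membranes, fell to 1.36 and 1.37 TPM in mutants, against 3.83 and 3.45 TPM in siblings (log2 change -0.97, SE 0.122). lama5 thus made up 53.4% and 54.2% of alpha-chain TPM in mutants and 25.5% and 25.4% in siblings, and lama1 made up 43.6% and 42.6% in mutants and 65.4% and 65.6% in siblings.

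The beta chains were dominated by 1 lamb1 identifier, which rose, while the scarcer lamb2-type chains fell. lamb1 (ENSDARG00000101209) had 139 and 124 TPM in mutants against 72.1 and 71.2 TPM in siblings, a log2 change of 0.87 (SE 0.0733, adjusted p = 1.87e-04). The other lamb1 copy (ENSDARG00000045524) was near 1 TPM throughout, at 1.18 and 1.12 TPM in mutants and 1.03 and 1.40 TPM in siblings, and did not pass; its log2 change of -0.04 turned positive, to 0.02 and 0.06, under the other scalings. lamb2l, a lamb2-type chain, fell to 2.27 and 1.97 TPM in mutants, against 7.94 and 7.85 TPM in siblings (log2 change -1.51, SE 0.115, adjusted p = 1.29e-04). lamb2, its neighbour in the RefSeq gene order of assembly GRCz12tu, had 2.94 and 2.2 TPM in mutants against 3.74 and 3.82 TPM in siblings. Its call as lower (-0.43, SE 0.143, adjusted p = 0.0385) was lost in 6 of the 12 alternative fits and untested in another, among them median ratio scaling (-0.35) and the fits without mutant library 2 (-0.28), sibling library 1 (-0.44) or sibling library 2 (-0.42).

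lamc1, the common gamma chain of laminin trimers, rose with the lowest adjusted p of the laminin chains. It stood at 151 and 141 TPM in mutants against 59.3 and 58.4 TPM in siblings (log2 change 1.3, SE 0.0604, adjusted p = 2.54e-05), and held between 96.8% and 97.8% of gamma-chain TPM in every library. lamc3 had 1.53 and 1.67 TPM in mutants against 1.36 and 1.15 TPM in siblings and did not pass (0.21). In all, 4 of 10 tested laminin chains rose, 3 fell and 3 did not pass, beside 28.0% higher and 37.7% lower among all tested genes. The summed TPM of the 14 chains was 374 and 335 in the mutants against 197 and 194 in the siblings.

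**Figure D2:**
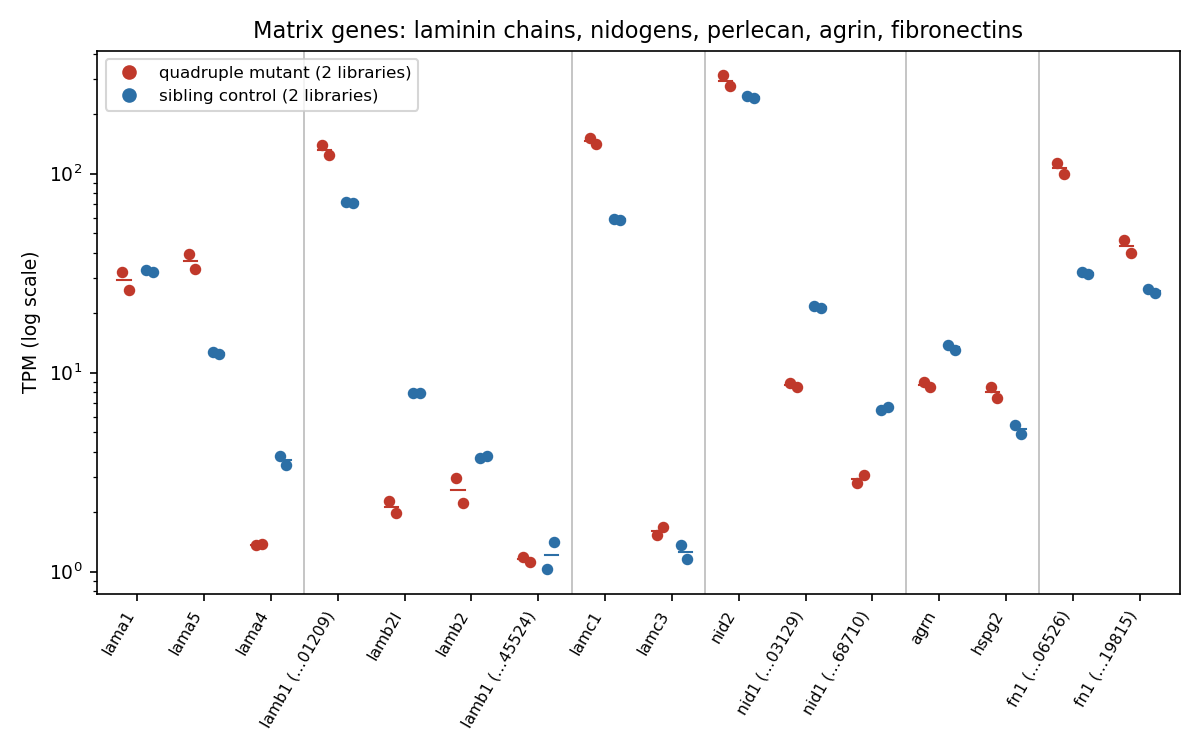
TPM (log axis) of tested matrix genes in each library, quadruple mutants in red and sibling controls in blue, with short lines at the genotype means (n = 2 each). Both mutant points lie above both sibling points for lama5, lamb1 (ENSDARG00000101209), lamc1, lamc3, nid2, hspg2 and both fn1 copies. They lie below for lama4, lamb2, lamb2l, agrn and both nid1 copies. Of these genes lamc3 did not pass the test, and nid2 is the most abundant.

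The tested nidogens, which link laminin to collagen IV, moved in both directions. The untested nid2b had 0.25 and 0.30 TPM in mutants against 0.43 and 0.51 TPM in siblings. nid2, the most abundant member of all, was at 311 and 274 TPM in mutants and 245 and 239 TPM in siblings. Its small rise (log2 change 0.27, SE 0.0713, adjusted p = 0.0165) did not pass without sibling library 1 (0.29), without sibling library 2 (0.25) or without the variance trend (0.27), and was 0.18 without mutant library 1. Both nid1 copies fell. nid1 (ENSDARG00000103129) had 8.84 and 8.50 TPM in mutants against 21.6 and 21.2 TPM in siblings (-1.21, SE 0.0829, adjusted p = 9e-05), and nid1 (ENSDARG00000068710) had 2.80 and 3.07 TPM in mutants against 6.51 and 6.69 TPM in siblings (-0.95, SE 0.111). The 2 heparan sulfate proteoglycans also moved apart. hspg2, which encodes perlecan, stood at 8.43 and 7.49 TPM in mutants against 5.47 and 4.90 TPM in siblings (0.53, SE 0.115, adjusted p = 0.0076), a call lost without sibling library 2 (0.47). agrn, which encodes agrin, the organiser of acetylcholine receptors at the neuromuscular synapse, fell to 8.92 and 8.49 TPM in mutants, against 13.7 and 13.0 TPM in siblings (-0.57, SE 0.091).

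Both fibronectin copies rose, by unequal amounts. fn1 (ENSDARG00000006526) had 113 and 99.4 TPM in mutants against 32.0 and 31.4 TPM in siblings, the largest log2 change of any tested member at 1.71 (SE 0.0802, adjusted p = 2.59e-05). fn1 (ENSDARG00000019815) had 46.2 and 40.0 TPM in mutants against 26.2 and 25.2 TPM in siblings (0.72, SE 0.0895, adjusted p = 8.26e-04). Each mutant library exceeded each sibling library for both copies. Within each library, the log2 ratio of the first copy to the second was 1.28 and 1.29 in the mutants and 0.28 and 0.30 in the siblings, a difference of 0.99 (exact permutation p = 0.333, 2-sided, the smallest possible). The first copy made up 71.0% and 71.3% of fibronectin TPM in mutants and 55.0% and 55.4% in siblings. The name table gives both copies the same symbol, and which is fn1a and which fn1b was not used here.

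Of 10 tested integrin alpha subunits, 4 rose, 4 fell and 2 did not pass (all tested genes: 28.0% higher, 37.7% lower). itgav, whose product binds RGD ligands such as vitronectin and fibronectin, stood at 51.6 and 50.9 TPM in mutants against 15.9 and 15.7 TPM in siblings (log2 change 1.64, SE 0.0679, adjusted p = 1.8e-05). itga3, a laminin receptor subunit that zebrafish need for the fin fold, stood at 58.1 and 55.4 TPM in mutants against 19.2 and 18.2 TPM in siblings (1.55, SE 0.0714, adjusted p = 2.43e-05). For these genes the mutant means were 3.24 and 3.04 times the sibling means. Its copy itga3a was scarce, at 1.38 and 1.32 TPM in mutants against 0.54 and 0.64 TPM in siblings; it entered through the mutants (0.56, SE 0.129), and the call was lost without sibling library 1 (0.52) or 2 (0.61).

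Both itga5 and itga4 fell in the same libraries. itga5, the classical fibronectin receptor subunit, had 4.97 and 4.60 TPM in mutants against 7.88 and 7.71 TPM in siblings (-0.61, SE 0.104, adjusted p = 0.00305). itga4, which binds fibronectin and the vascular adhesion molecule VCAM-1, had 1.41 and 1.35 TPM in mutants against 3.87 and 3.95 TPM in siblings (-1.04, SE 0.117, adjusted p = 5.47e-04). The 2 itga6-type laminin receptor genes moved in opposite directions: itga6 fell to 17.2 and 19.4 TPM in mutants, against 27.8 and 27.2 TPM in siblings (-0.56, SE 0.086), whereas itga6b rose to 12.7 and 13.2 TPM in mutants, against 8.95 and 7.47 TPM in siblings (0.60, SE 0.112). The log2 ratio of itga6 to itga6b was 0.41 and 0.53 in the mutants and 1.53 and 1.74 in the siblings.

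The remaining alpha subunits were low or did not pass. itga11 (ENSDARG00000036086), a collagen receptor subunit, had 0.35 and 0.40 TPM in mutants against 1.02 and 1.13 TPM in siblings, just inside the filter (-0.59, SE 0.13), and entered only through the siblings. itga2, another collagen receptor subunit, had 0.92 and 0.86 TPM in mutants against 1.36 and 1.45 TPM in siblings (-0.35, adjusted p = 0.0504). It entered through the siblings as well, and passed only without the variance trend. itga9, a receptor subunit for tenascin and other ligands, had 8.29 and 6.50 TPM in mutants and 7.03 and 8.19 TPM in siblings, with overlapping genotypes (-0.04). The makeup of alpha-subunit transcripts also differed. itga3 took 36.7% and 35.8% of alpha-subunit TPM in mutants against 20% and 19.4% in siblings, and itgav 32.6% and 32.9% in mutants against 16.6% and 16.7% in siblings. itga6 took 10.9% and 12.5% in mutants against 29.0% in each sibling library.

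**Figure D3:**
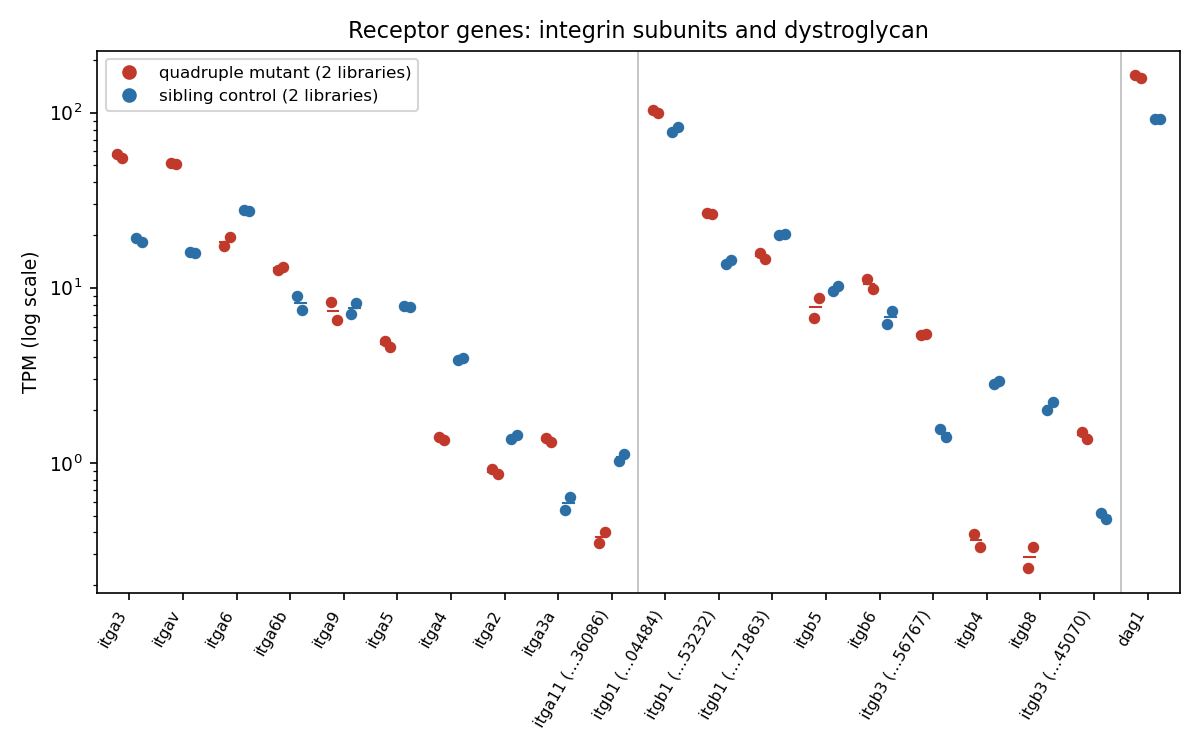
TPM (log axis) of tested integrin subunit genes and dag1 in each library, quadruple mutants in red and sibling controls in blue, with short lines at the genotype means (n = 2 each). itga3 and itgav lie between 50.9 and 58.1 TPM in mutants and below 20 TPM in siblings; itgb4 and itgb8 are below 0.4 TPM in mutants and above 2 TPM in siblings.

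Of 9 tested beta subunits 5 rose, 3 fell and 1 did not pass (all tested genes: 28.0% higher, 37.7% lower). The beta1 subunit, the shared partner of most laminin and fibronectin receptors, has 4 identifiers here. The most abundant, itgb1 (ENSDARG00000104484), was at 104 and 99.0 TPM in mutants against 77.1 and 82.7 TPM in siblings (0.34, SE 0.0644, adjusted p = 0.0045), a call lost without sibling library 1 (0.29). itgb1 (ENSDARG00000053232) had 26.7 and 26.2 TPM in mutants against 13.6 and 14.4 TPM in siblings (0.87, SE 0.0778, adjusted p = 2.29e-04). In the opposite direction, itgb1 (ENSDARG00000071863) had 15.9 and 14.6 TPM in mutants against 20.1 and 20.2 TPM in siblings (-0.38, SE 0.0835), and that call was lost without sibling library 1 (-0.39) or 2 (-0.38). Summed over the 4 identifiers, itgb1 came to 147 and 140 TPM in mutants against 112 and 118 TPM in siblings. The RefSeq gene order of GRCz12tu places itgb1b, itgb1b.2 and itgb1b.1 next to one another, and how the authors' counting divided reads between such copies is not known, so the copies' separate values are uncertain.

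Of the 5 tested genes for beta subunits other than beta1 that can pair with the itgav product, 3 rose, 1 fell (itgb8) and 1 did not pass. Among all tested genes 28.0% were higher and 37.7% lower. Of these called genes, itgb8 met the filter only through the siblings and 1 itgb3 copy only through the mutants, so both could hardly have been tested without differing. itgb3 (ENSDARG00000056767), the vitronectin receptor beta subunit, had 5.39 and 5.43 TPM in mutants against 1.55 and 1.41 TPM in siblings, 3.66 times as much by the means (log2 change 1.37, SE 0.116, adjusted p = 1.85e-04). The other itgb3 copy (ENSDARG00000045070), which entered through the mutants, had 1.5 and 1.37 TPM in mutants against 0.52 and 0.48 TPM in siblings (0.70, SE 0.128). itgb6, an epithelial partner of itgav, had 11.2 and 9.87 TPM in mutants against 6.22 and 7.40 TPM in siblings (0.56, SE 0.122), a call lost without sibling library 1 (0.46). itgb5 had 6.74 and 8.68 TPM in mutants against 9.52 and 10.2 TPM in siblings and did not pass (-0.33, adjusted p = 0.0729); it passed as lower without mutant library 2 (-0.49) and with the replicate block (-0.33).

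Among receptors, itgb4 and itgb8 had the most negative log2 changes. Both entered the test only through the siblings and could hardly have been tested without differing. itgb4, whose product joins the itga6 product in the hemidesmosomes of skin, had 0.39 and 0.33 TPM in mutants against 2.81 and 2.92 TPM in siblings (log2 change -1.51, SE 0.125, adjusted p = 1.73e-04). itgb8, a partner of itgav known in mouse for activating TGF-beta, had 0.25 and 0.33 TPM in mutants against 2.01 and 2.21 TPM in siblings (-1.27, SE 0.13). The mutant means were 0.126 and 0.137 times the sibling means. With a pseudocount of 0.1 TPM the log2 changes were -2.69 and -2.51. The hemidesmosomal collagens col17a1a and col17a1b were at or below 0.34 TPM in every library, so that gene pair gives no reading beside itgb4.

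dag1, which encodes dystroglycan, the laminin receptor of muscle and neural basement membranes, was the second most abundant member. It stood at 163 and 157 TPM in mutants against 92.0 and 91.8 TPM in siblings (log2 change 0.79, SE 0.0538, adjusted p = 8.68e-05), 1.74 times as much. itgb1bp1, whose product binds the beta1 tail and counters talin, rose to 54.0 and 56.9 TPM in mutants, against 22.6 and 25.6 TPM in siblings (1.17, SE 0.0845, adjusted p = 1.07e-04). itgb3bp, whose product is also a kinetochore protein, fell to 1.08 and 1.94 TPM in mutants, against 3.88 and 4.47 TPM in siblings (-1.06, SE 0.192).

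**Figure D4:**
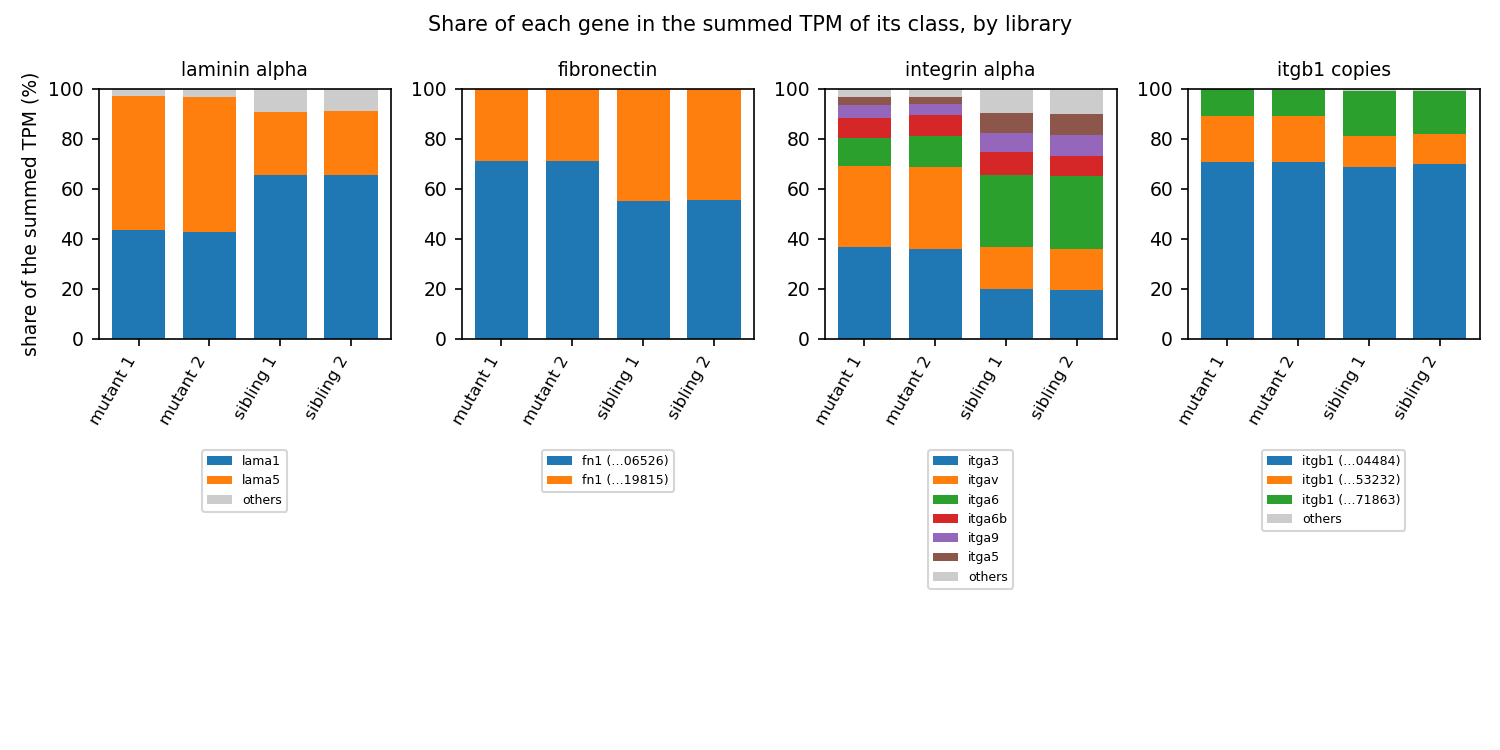
Share of each gene in the summed TPM of the laminin alpha chains, the fibronectins, the integrin alpha subunits or the itgb1 copies (stacked bars, percent) in each of the 4 libraries, mutants on the left; genes with a mean share under 5% of that sum are pooled as others. lama5 takes 53.4% and 54.2% of alpha-chain TPM in mutants and 25.5% and 25.4% in siblings, and itga3 and itgav each take a larger share of integrin alpha TPM in both mutant libraries, while itgb1 (ENSDARG00000104484) lies between 68.9% and 70.8% of the summed itgb1 copies.

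Further pairs of copies also differed in their ratio. The log2 ratio of itgb1 (ENSDARG00000053232) to itgb1 (ENSDARG00000071863) was 0.71 and 0.81 in the mutants and -0.53 and -0.46 in the siblings, so that their order was reversed, and the difference of 1.25 was the largest of the 9 pairs. That of lamb1 (ENSDARG00000045524) to its abundant copy was -6.01 and -5.88 in the mutants and -5.17 and -4.91 in the siblings. For nid1 (ENSDARG00000068710) over nid1 (ENSDARG00000103129) it was -1.37 and -1.22 in the mutants and -1.59 and -1.53 in the siblings, a difference of 0.26. In all 9 ratios computed the genotypes did not overlap. Of all tested genes, 83.3% did not overlap in TPM, so little can be read from that count. The ratios were also not independent, since those of itgb1 shared identifiers. itga3a and itgb3 (ENSDARG00000045070) entered only through the mutants. Each ratio had the smallest possible exact permutation p of 0.333 (2-sided), which stays 0.333 after Benjamini-Hochberg adjustment.

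The 16 members below the filter were not tested. itga8 (0.37 and 0.27 TPM in mutants, 1.19 and 0.83 TPM in siblings) and the fourth itgb1 identifier, ENSDARG00000022689 (0.39 and 0.41 TPM in mutants, 1.1 and 0.94 TPM in siblings), lay just outside it. The other 14 were below 1 TPM in every library. They included lama2, the alpha chain of mature muscle, at 0.77 and 0.56 TPM in mutants and 0.66 and 0.87 TPM in siblings, and lamb4 at 0.14 and 0.16 TPM in mutants against 0.86 and 0.73 TPM in siblings. itgb2, the leukocyte beta subunit, was at 0.03 and 0.02 TPM in mutants against 0.35 and 0.63 TPM in siblings. itga2b, the thrombocyte subunit, did not exceed 0.01 TPM, and itga10, itga1, itga2.1, itga2.3, itga6l, itgb7, nid2b, lama3, lamb3 and the second itga11 identifier (ENSDARG00000007950) completed the group.

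Of 41 tested adaptors that connect integrins to actin and to kinases, 13 rose (31.7%), 14 fell (34.1%) and 14 did not pass. Their median log2 change was 0.01. These shares were near those of all tested genes, of which 28.0% rose and 37.7% fell. The core adaptors tln1 (0.01), ilk (0.02), rsu1 (0.08) and lims2 (0.02) did not pass, whereas lims1 (0.42) and parvb (0.43), partners of ilk, rose. Among the other parvins, parva (ENSDARG00000043710, 0.14) and parva (ENSDARG00000035629, 0.18) did not pass. parvg fell (-0.92) and met the filter only through the siblings, as did the talin gene tln2b (-0.6). Of the kindlins fermt1 rose (0.87) and fermt2 fell (-0.44). The calls of lims1, parvb and fermt2 were each lost in at least 1 alternative fit. ptk2b (ENSDARG00000039577), the kinase related to focal adhesion kinase, had 98.6 and 93.0 TPM in mutants against 14.7 and 15.5 TPM in siblings (2.59, SE 0.0713, adjusted p = 4.69e-06). cd151 (ENSDARG00000068629), a tetraspanin that associates with laminin-binding integrins, had 430 and 483 TPM in mutants against 78.3 and 75.3 TPM in siblings (2.55, SE 0.0704). Further risers with the lowest p-values were zyx (1.91), which encodes the stress-fibre protein zyxin, the kinase gene src (1.47), pxn (ENSDARG00000088590; 0.84), which encodes paxillin, and the tetraspanin gene cd9b (0.63). Falls were led by tln2 (-1.74), a talin, ptk2ab (-0.73), a focal adhesion kinase copy, cd9a (-1.12), tns1 (-0.91), a tensin, the other cd151 copy (ENSDARG00000038288; -0.86) and crk (-0.50). Without sibling library 2 the number that fell was 9.

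Other matrix proteins and integrin ligands moved widely: of 42 tested, 14 rose (33.3%), 22 fell (52.4%) and 6 did not pass. Their median was -0.35, and of all tested genes 28.0% rose and 37.7% fell. svep1, a large matrix protein that binds integrin alpha9, rose to 33.3 and 31.4 TPM in mutants, against 1.23 and 1.29 TPM in siblings (3.88, SE 0.0981, adjusted p = 3.95e-06). frem1b (2.16), a protein of the Fraser basement membrane complex, vtn (ENSDARG00000055388; 2.3), which encodes the itgav ligand vitronectin, ltbp1 (1.29) and tnr (1.60) rose as well, as did ecm2 (3.37), which like tnr was under 1 TPM in both siblings. The falls with the lowest p-values were hapln1a (-1.89), a hyaluronan link protein, egfl6 (-2.01), an RGD matrix protein, and thbs4 (ENSDARG00000020072, -1.57). Next came emilin1a (-1.48), thbs3 (ENSDARG00000012060, -1.02) and vcanb (-1.24), of which vcanb was under 1 TPM in both mutant libraries. Among the counted genes, ecm2, tnr, ntn4 and tnc (ENSDARG00000078362) met the filter only through the mutants, and vcanb only through the siblings. Such genes could hardly have been tested without differing. Numbers were 9 higher without mutant library 1 and 14 lower without sibling library 1.

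Of 29 tested genes of the dystroglycan complex and its glycosylating enzymes, 4 rose (13.8%), 9 fell (31.0%) and 16 did not pass. Their median was -0.17, and 28.0% of all tested genes rose and 37.7% fell. dmd, which encodes dystrophin, fell to 22.1 and 19.7 TPM in mutants, against 37.2 and 37.6 TPM in siblings (-0.81, SE 0.0825, adjusted p = 3.77e-04). large2, an enzyme that extends the laminin-binding glycan, fell to 12.6 and 11.8 TPM in mutants, against 22.6 and 22.0 TPM in siblings (-0.82, SE 0.0821). Further falls were those of dtna (-0.94), sntb1 (-0.67) and b3galnt2 (-0.61). The 4 that rose were the mannose donor genes dpm2 (0.55), dpm3 (0.45) and gmppb (0.42) and the kinase gene pomk (0.36), the calls of dpm3 and pomk being lost in at least 1 alternative fit; without sibling library 2 the number was 2 and under median ratio scaling 7. utrn, the dystrophin relative utrophin, did not pass (0.25).

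**Figure D5:**
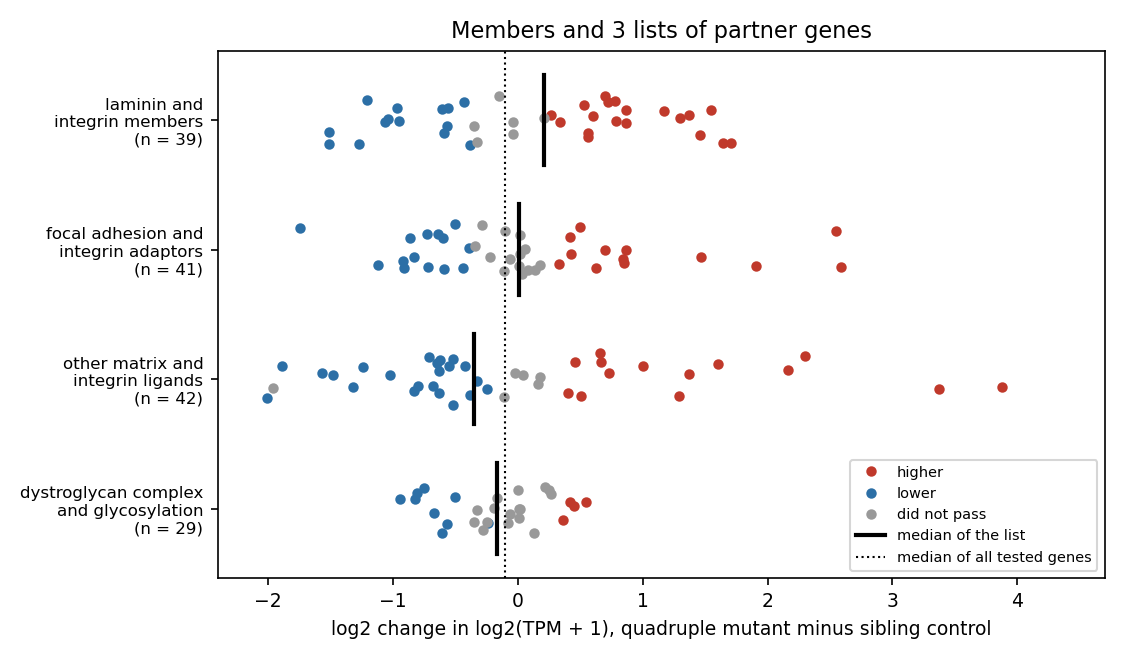
Log2 change (quadruple mutant minus sibling control, in log2(TPM + 1)) of each tested gene among the members (39) and in the lists of adaptors (41), other matrix and ligands (42) and dystroglycan complex and glycosylation (29), colored by call; vertical offsets are arbitrary. Black bars are list medians, 0.21, 0.01, -0.35 and -0.17, and the dotted line is the median of all tested genes, -0.10.

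Cell type markers differed between the genotypes in the same libraries, and their part in the values above was not tested. For the counts below, 28.0% of all tested genes rose and 37.7% fell. Epidermal markers, given here beside lama5, itga3, itgb4 and itgb6, summed to 26442 and 24650 TPM in mutants against 19495 and 19393 TPM in siblings. Of 18 tested, 9 rose and 3 fell. The largest values in that sum were those of cyt1, krt4 and cyt1l, with log2 changes of 0.42, 0.36 and 0.41. The basal-cell gene tp63 had 43.5 and 45.6 TPM in mutants against 59.9 and 53.8 TPM in siblings. Neural markers summed to 283 and 345 TPM in mutants against 978 and 992 TPM in siblings, and all 18 fell. Somite and muscle markers, given beside itga5, dmd and agrn, summed to 1655 and 1545 TPM in mutants against 2105 and 2144 TPM in siblings (14 of 18 fell, 2 rose). Endothelial markers, given here beside lama4, summed to 287 and 279 TPM in mutants against 149 and 151 TPM in siblings (9 of 15 rose, 2 fell). The largest values in that sum were those of lmo2 and tal1. Their means were 73.5 and 69.0 TPM in mutants against 28.05 and 29.0 TPM in siblings. In the same list kdrl (0.02), kdr (0.08), fli1 (0.06) and tie1 (-0.24) did not pass, and tek (-1.08) and sox18 (-0.44) fell. Of these, tek entered only through the siblings and could hardly have been tested without differing. The calls of sox18 and of the rising genes flt1, esam and erg were each lost in at least 1 alternative fit. Notochord markers, given here beside lama1 and lamc1, summed to 765 and 760 TPM in mutants against 705 and 699 TPM in siblings (4 of 15 rose, 4 fell). Within that sum copb2 had 133 and 137 TPM in mutants against 96.3 and 93.6 TPM in siblings. Thrombocyte markers fell in 4 of 5 tested genes and summed to 21.5 and 19.9 TPM in mutants against 32.0 and 34.5 TPM in siblings. The largest value in that sum was that of thbs1, which did not pass (-0.02). Of the genes that fell, gp1bb and gp9 entered only through the siblings. mpl was listed at 0 throughout and itga2b did not exceed 0.01 TPM, so the sum is no measure of thrombocytes. Of myeloid markers 4 of 6 tested fell and 1, cebpa, rose (54.2 and 53.4 TPM in mutants against 52.0 and 50.9 TPM in siblings). Most of that sum was cebpa, with 39.9 and 40.8 TPM in mutants and 30.0 and 31.2 TPM in siblings. Of the myeloid genes that fell, coro1a, cybb and mpeg1 (ENSDARG00000055290) entered only through the siblings and could hardly have been tested without differing. Of heart markers 5 of 9 fell and 2 rose (91.7 and 93.7 TPM in mutants against 104 and 109 TPM in siblings). Of endoderm markers 6 of 10 fell and 3 rose (168 and 162 TPM in mutants against 164 and 167 TPM in siblings). In the neural, muscle, notochord and heart lists, elavl4, pax2 (ENSDARG00000032578), myhz1.1, col9a1 and myh6 (ENSDARG00000079564) fell and also entered only through the siblings.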

How the data were processed

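Poly-A libraries of whole embryos were read from both ends for 150 bp (labels' protocols). The authors deposited TPM per Ensembl gene identifier, 1 column per library, each with the same total within rounding; this scaling keeps no depth, so counting error is unknown. GRCz11 is the build and RSEM 1.3.3, STAR 2.7.3a, R 4.3.3, HTSeq 0.12.3 and DESeq2 1.42.1 are the tools named, without roles, per the submitters' processing notes; annotation and strand setting are not given in the sources used here. Symbols came from a name table that named 28988 of 32057 identifiers and are printed in lower case, with the identifier where several share one.

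Genes at 1 TPM or more in at least 2 libraries (16172) were fitted in limma 3.58.1 (R 4.3.3) on log2(TPM + 1) with a variance trend, without a block, and p-values were adjusted over all of them by the Benjamini-Hochberg method (threshold 0.05). Tested members are named, and of each partner list up to 6 genes per direction with the lowest p; some genes that are counted are not reported here by name, and the others named were chosen after their values were seen. Partner and marker lists leave out the members. Symbols were matched exactly or without the copy letter, and those matching over 4 identifiers were left out. The members and lists were chosen with earlier results of these data known. Alternatives were other pseudocounts (0.1 and 5 TPM), filters (none, 5 TPM), scalings (median ratio, quantile), no variance trend, a replicate block, and each library left out. Tables and figures used Python 3.11.15, pandas 2.3.3, numpy 2.4.6 and matplotlib 3.10.9. Sequences were not analysed here.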

Additional observations from a re-analysis of the deposited data

How the results depend on the processing

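Of 33 called members, 18 kept their call in all 12 alternative fits (12 higher, 6 lower); 7 lost it to the test in at least 1 fit, and 8 were only left untested by a filter. Members called higher numbered 15 to 16 and lower 9 to 15 with 1 library left out, and 7 were lower with a filter of 5 TPM, where 23 of the 33 were tested. Genes under 1 TPM in a genotype cannot meet the filter once a library of the other genotype is removed, and a lone library was assumed to vary like the pair. Leaving out 1 library gave 12 to 13 higher and 9 to 14 lower adaptors, 9 to 12 higher and 14 to 23 lower matrix and ligand genes, and 2 to 5 higher and 6 to 12 lower dystroglycan genes. The dystroglycan list had 7 higher under median ratio scaling and 5 lower with a filter of 5 TPM, and the matrix and ligand list 9 higher with that filter. The direction of itga9 turned to 0.05 (median ratio), 0.04 (quantile), 0.11 (without mutant library 2) and 0.06 (without sibling library 2), and without 1 library ranged from -0.20 to 0.11. That of lamb1 (ENSDARG00000045524) turned to 0.02, 0.06 and, without sibling library 2, 0.08, ranging from -0.16 to 0.08 without 1 library; neither gene passed, and the cause was not tested.

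The differences in paralogue ratio kept their direction in all 54 alternatives, but the size of some depended on the pseudocount. With 0.1 and 5 TPM, itga3 over itga3a gave 0.52 and 1.2 in place of 0.99. For nid1 the values were 0.15 and 0.4 in place of 0.26, and for itgb3 -0.45 and -0.46 in place of -0.67. Without 1 library the differences ranged from 0.98 to 1.00 for fn1 and 0.91 to 1.07 for itga3 over itga3a. The range was -1.27 to -1.06 for itga6 over itga6b and 0.18 to 0.33 for nid1. For lamb1 it was -1.03 to -0.77 and for itgb3 -0.72 to -0.63. For itgb1 the ranges were 1.21 to 1.3, 0.51 to 0.55 and -0.77 to -0.68. With a replicate block 19 members were higher and 15 lower, and itgb5 was the only member whose call changed (log2 change -0.33). Same-numbered libraries deviated together only weakly across genes (r = 0.0488), so the numbers were not treated as a pairing. Pseudocounts of 0.1 and 5 TPM moved 6 and 15 of the 33 log2 changes by over 1.5 times, all of genes with means under 10 TPM, and changed no call. Depth is unknown, so values near 1 TPM carry an unmeasured counting error.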

Other observations

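Several copies of matrix genes outside the laminin and integrin families moved in opposite directions; they were chosen after their values were seen. The vitronectin copy vtn (ENSDARG00000053831) fell to 6.49 and 8.26 TPM in the quadruple mutants, against 13.8 and 13.1 TPM in siblings (log2 change -0.80, adjusted p = 0.0023), whereas the other copy rose by 2.3. Of the tenascin C copies, tnc (ENSDARG00000021948) fell to 8.53 and 10.5 TPM in mutants, against 19.99 and 15.5 TPM in siblings (-0.83), and tnc (ENSDARG00000078362) rose to 1.66 and 1.26 TPM in mutants, against 0.53 and 0.55 TPM in siblings (0.67). The Fraser complex genes frem2 (ENSDARG00000102626; 0.66) and frem2 (ENSDARG00000076856; -0.52) also differed in sign. Because tnc (ENSDARG00000078362) was under 1 TPM in both sibling libraries, its entry into the test depended on its higher level in mutants. Its rise therefore says little by itself. The calls of tnc (ENSDARG00000078362) and frem2 (ENSDARG00000076856) were each lost in at least 1 alternative fit. npnt, which encodes nephronectin, a ligand of integrin alpha8, rose to 13.7 and 11.8 TPM in mutants, against 5.55 and 6.19 TPM in siblings (1.00, adjusted p = 6.38e-04). sparc, a collagen-binding basement membrane protein, rose to 422 and 413 TPM in mutants, against 316 and 317 TPM in siblings (0.40).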
